A study of Mus musculus with 9 samples.

Results

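Levels of 10 genes of the p53 pathway and the Cdkn2 locus were read in bulk RNA-seq counts of mouse B16-F10 melanoma tumours: Trp53, which encodes p53, 7 of its direct targets (Cdkn1a, Mdm2, Ccng1, Trp53inp1, Sesn2, Phlda3 and Eda2r), and the inhibitor genes Cdkn2a and Cdkn2b. They were taken by symbol, and all 10 were found among the 54532 entries of the count files. The melanoma cells expressed either a control short hairpin RNA (labelled WT), hairpin 1 or hairpin 2, the last 2 aimed at Fbxo38, a gene for an F-box protein of a ubiquitin ligase. They grew as tumours under the skin of C57BL/6 mice with no further treatment until day 16, and each of the 3 groups has 3 libraries. The sources used here do not give the age of the mice, whether a hairpin line is 1 clone or whether replicates were separate animals, so p-values measure only the spread between these samples. The genotype labels of the 6 hairpin libraries name 6 different genes of the FBXO family, and groups were taken from the titles.

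p53 is a transcription factor that is kept at a low level by Mdm2, a ubiquitin ligase whose own gene p53 switches on. Stress frees p53 from Mdm2 and raises genes that halt the cell cycle, repair damage or kill the cell. Cdkn2a encodes, from separate first exons, p16INK4a, which inhibits the cyclin D kinases, and p19ARF, which blocks Mdm2. Its neighbour Cdkn2b encodes p15INK4b, an inhibitor of the same kinases. Loss of this locus is frequent in melanoma, and the B16 line is widely described as lacking Cdkn2a.

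Library totals ranged from 15322163 to 17342554 counts, and 14193 genes passed the filter on low counts. Fbxo38 stood at 27.9 ± 5.41 CPM in control libraries, 26.0 ± 7.87 CPM in the libraries labelled hairpin 1 and 14.7 ± 5.39 CPM with hairpin 2 (SD, n = 3 each; CPM is the usual read count scaled to library size). Its log2 fold change against control was -0.10 (95% interval -0.73 to 0.53) with hairpin 1 and -0.92 (-1.56 to -0.28) with hairpin 2, and neither passed the threshold, an edgeR Benjamini-Hochberg adjusted p under 0.05 (adjusted p = 0.9999 and 0.254). The 8 melanocyte markers summed to between 21899 and 28473 CPM in each library. Summed fibroblast markers (8 of 8 detected) ranged from 184 to 432 CPM in control, from 269.7 to 3378 CPM in hairpin 1 and from 299.5 to 1467 CPM in hairpin 2 libraries. Summed leukocyte markers (8 of 8 detected) ranged from 44.4 to 126 CPM, 59.2 to 146 CPM and 24.1 to 173 CPM in the same order. Across the 9 libraries, summed endothelial markers (7 of 7 detected) ranged from 161 to 318 CPM, erythroid markers (5 of 5) from 421 to 21462 CPM and muscle markers (4 of 4) from 0.477 to 12.98 CPM, and of 4 keratinocyte markers Krt5, Krt14 and Krt1 had 0 counts throughout. Replicate 1 of hairpin 1 and replicate 2 of hairpin 2 lay at the ends of the first principal component, which held 35.8% of the variance. Longer transcripts were relatively higher in the hairpin 2 libraries: Spearman's rho of a gene's deviation from its mean with transcript length was 0.33, 0.32 and 0.11 there, against -0.31 to 0.02 in the other 6 libraries, a description across 14109 genes. In bulk tissue, fewer cells of a type and less RNA per cell cannot be told apart.

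No member passed the threshold in any of the 4 contrasts tested with edgeR: each hairpin against control, the mean of both hairpins against control, and hairpin 2 against hairpin 1. Of all 14193 genes, 0 (0.0%) passed in each of them. At an unadjusted p under 0.05, edgeR held 450 genes (3.17%) for hairpin 1, 2046 (14.4%) for hairpin 2, 1034 (7.29%) for their mean and 1655 (11.7%) for hairpin 2 against hairpin 1. Of the 9 members tested, 1 (Trp53inp1) was among these genes for hairpin 2 and for hairpin 2 against hairpin 1, and 0 in the other 2 contrasts. DESeq2 called 0 genes for hairpin 1 and 303 (2.13%) for hairpin 2, 8 (0.0564%) for the mean and 89 (0.627%) for hairpin 2 against hairpin 1. Trp53inp1 was the only member among them, in hairpin 2 against hairpin 1. limma-voom called 0 genes in each contrast. Groups that did not overlap were seen for 0 of the 9 members with hairpin 1 against control (8.38% of all genes), for 0 with hairpin 2 against control (20.9%) and for 1, Trp53inp1, in hairpin 2 against hairpin 1 (16.0%).

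The levels of the 10 genes spread widely when set per kb of the longest annotated transcript, the scale on which genes were compared with each other. In the control libraries Phlda3 stood at 84.3 ± 22.98 CPM per kb and Cdkn1a at 79.8 ± 19.7 CPM per kb (SD, n = 3), and their ranges overlapped. Trp53 followed at 50.4 ± 7.32 CPM per kb, below every Cdkn1a value, and Ccng1 at 37.5 ± 10.8 CPM per kb overlapped it. Lower stood Mdm2 at 14.99 ± 1.06, Sesn2 at 9.51 ± 1.40 and Trp53inp1 at 6.30 ± 1.10 CPM per kb, whose ranges did not overlap. Cdkn2b stood at 0.511 ± 0.291, Eda2r at 0.0605 ± 0.00953 and Cdkn2a at 0.0243 ± 0.0421 CPM per kb, and the last 2 overlapped. The counting floor of 3 counts was 0.178 to 0.202 CPM per library and covers counting error only, and Cdkn2a lay under it in each control library.

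**Figure D1:**
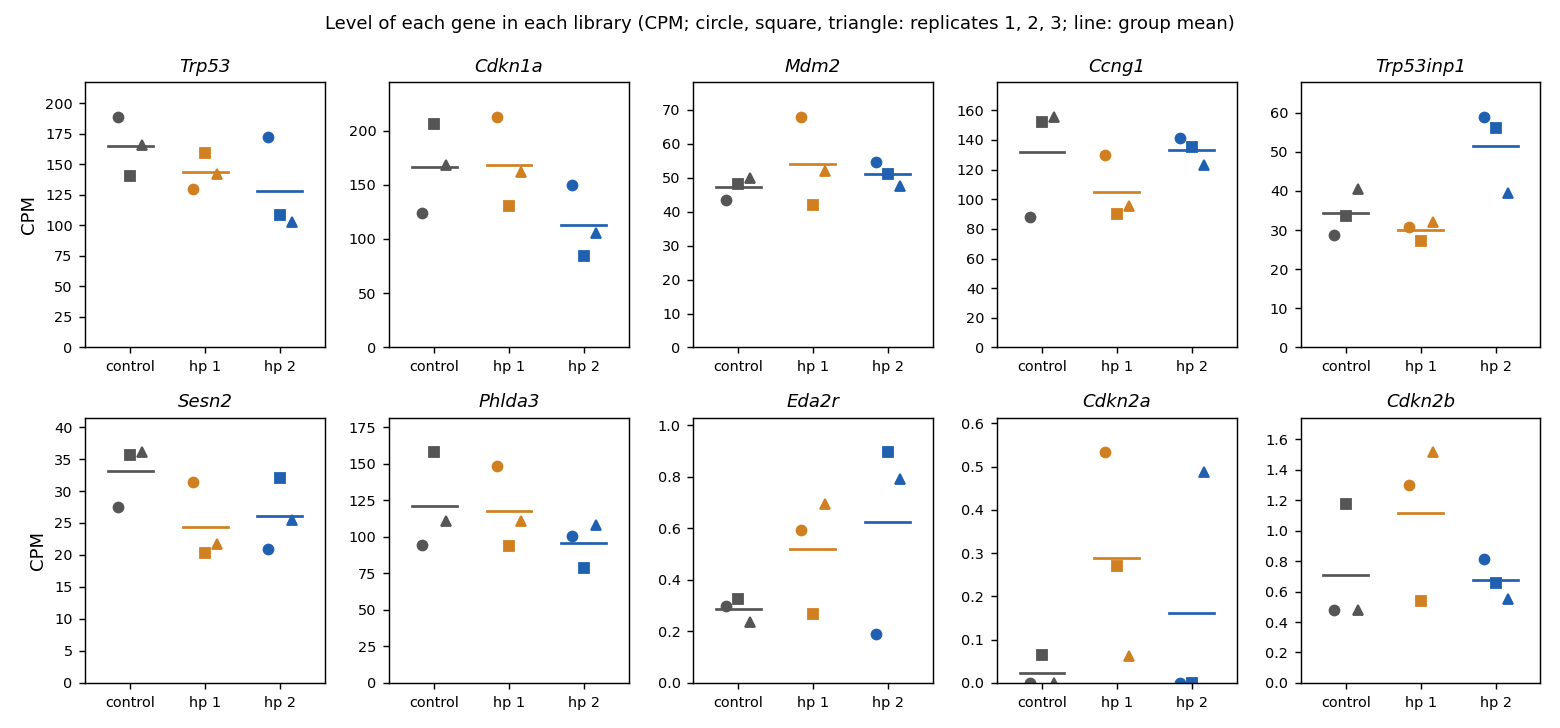
CPM of each of the 10 genes (vertical axes, linear and starting at 0) in the 9 libraries by group (horizontal axes; hp 1 and hp 2 are the hairpins), with a point per replicate and a line at the group mean. Trp53inp1 with hairpin 2 (39.4 to 58.9 CPM) lies above the hairpin 1 libraries (27.1 to 32.0 CPM), whereas the groups of the other genes overlap in that comparison.

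The p53 gene itself, Trp53 (ENSMUSG00000059552.13, GRCm38 chr11:69580359-69591873, plus strand), stood at 188.6, 140.7 and 165.6 CPM in control libraries 1 to 3, at 129.6, 159.4 and 141.8 CPM in hairpin 1 libraries and at 172.6, 108.6 and 102.7 CPM in hairpin 2 libraries. Replicates 2 and 3 of hairpin 2 lay below every control library and replicate 1 lay among them, so the groups overlapped. The log2 fold change against control was -0.20 ± 0.20 (SE) with hairpin 1 and -0.37 ± 0.20 with hairpin 2 (edgeR adjusted p = 0.9999 and 0.411). The pseudogene Trp53-ps had 5 to 19 counts per library, and reads of near-identical copies may be split between the 2 entries.

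The promoter windows of Trp53 and of 3 of its targets are shown because each holds a match to the p53 half-site, the 10-base unit that p53 binds in pairs; no binding was measured here. The windows are RefSeq sequences of GRCm38.p6 from 250 bases before to 50 bases after an annotated start, on the strand of the gene, 5′ to 3′, with matches to the half-site consensus in capitals (either strand, overlapping matches allowed). Of the 10 members, 9 had a window (11 windows in all), and 4 windows held a match. Among all 32851 windows of the table, 8.36% held at least 1 match and 0.359% at least 2.
Cdkn1a, chr17:29090729-29091028, plus strand: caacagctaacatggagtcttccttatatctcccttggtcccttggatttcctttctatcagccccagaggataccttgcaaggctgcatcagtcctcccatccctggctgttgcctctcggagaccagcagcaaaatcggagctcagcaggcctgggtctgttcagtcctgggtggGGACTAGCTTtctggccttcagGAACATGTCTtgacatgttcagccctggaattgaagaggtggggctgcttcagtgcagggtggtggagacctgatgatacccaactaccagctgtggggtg
Trp53, chr11:69580109-69580408, plus strand: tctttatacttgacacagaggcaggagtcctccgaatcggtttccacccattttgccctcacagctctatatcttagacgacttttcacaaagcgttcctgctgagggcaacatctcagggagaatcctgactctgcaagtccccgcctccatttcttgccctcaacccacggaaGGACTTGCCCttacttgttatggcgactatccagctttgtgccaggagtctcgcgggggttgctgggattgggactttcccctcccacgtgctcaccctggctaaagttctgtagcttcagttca
Mdm2, chr10:117710709-117711008, minus strand: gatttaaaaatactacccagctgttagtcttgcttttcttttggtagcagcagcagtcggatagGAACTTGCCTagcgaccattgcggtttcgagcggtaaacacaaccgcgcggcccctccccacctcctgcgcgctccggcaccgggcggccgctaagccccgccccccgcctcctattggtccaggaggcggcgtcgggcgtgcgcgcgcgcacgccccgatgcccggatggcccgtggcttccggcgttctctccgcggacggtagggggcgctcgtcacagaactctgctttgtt
Ccng1, chr11:40755237-40755536, minus strand: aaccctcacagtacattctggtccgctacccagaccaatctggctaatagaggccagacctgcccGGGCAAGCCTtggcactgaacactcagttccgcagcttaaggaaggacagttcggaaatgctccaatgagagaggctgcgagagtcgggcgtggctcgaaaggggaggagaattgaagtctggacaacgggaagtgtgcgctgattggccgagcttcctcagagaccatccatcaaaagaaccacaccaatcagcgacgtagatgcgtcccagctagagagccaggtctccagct
The Cdkn1a window shown held 2 matches, GGACTAGCTT beginning 73 bases and GAACATGTCT beginning 51 bases before the start. The CATG core of the second match is followed after 6 bases by another CATG, a spacing found in 0.712% of all windows. The matches in the other 3 windows were GGACTTGCCC at 75 bases (Trp53), GAACTTGCCT at 186 bases (Mdm2) and GGGCAAGCCT at 185 bases (Ccng1) before the start. The windows of Sesn2, Phlda3, Eda2r, Cdkn2a and Cdkn2b and the second window of Cdkn1a held no match to these letters. That second window lies at a downstream annotated start (chr17:29093519-29093818), and the Cdkn1a distances given are from the upstream start only.

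Cdkn1a (ENSMUSG00000023067.14, chr17:29090976-29100727, plus strand) encodes p21, the inhibitor of cyclin-dependent kinases through which p53 halts the cell cycle. It stood at 124.1, 205.8 and 168.2 CPM in control libraries 1 to 3, at 212.6, 130.6 and 162.1 CPM in hairpin 1 libraries and at 149.7, 84.3 and 105.3 CPM in hairpin 2 libraries. Replicates 2 and 3 of hairpin 2 were the lowest of the 9 libraries, and replicate 1 overlapped both other groups. Against control, the log2 fold change was 0.02 ± 0.26 (SE) with hairpin 1 and -0.55 ± 0.26 with hairpin 2 (edgeR adjusted p = 0.9999 and 0.372), and the exact two-sided permutation test of mean CPM gave p = 0.8 and 0.2, where 3 against 3 libraries cannot go below 0.1. Hairpin 2 differed from hairpin 1 by a log2 fold change of -0.58 ± 0.26 (edgeR adjusted p = 0.438), which stood at -0.20 without the 2 libraries at the ends of the first component. An exon of Cdkn1a overlaps the predicted entry AC167363.2 on the other strand, so their reads cannot be told apart.

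Mdm2 (ENSMUSG00000020184.15, chr10:117688875-117710758, minus strand), the ligase that marks p53 for degradation, was the steadiest of the 10 genes, with a 1.61-fold range from the lowest to the highest library. Its control libraries stood at 43.4, 48.2 and 49.9 CPM, its hairpin 1 libraries at 67.9, 42.0 and 51.9 CPM and its hairpin 2 libraries at 54.6, 51.2 and 47.5 CPM. Replicate 1 of hairpin 1 was the highest and the groups overlapped. Fitted log2 fold changes were 0.19 ± 0.16 (SE) with hairpin 1 and 0.12 ± 0.16 with hairpin 2 (edgeR adjusted p = 0.9999 and 0.775), and the 95% interval for hairpin 2 ran from -0.24 to 0.47.

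Ccng1 (ENSMUSG00000020326.7, chr11:40748552-40755311, minus strand) encodes cyclin G1, which recruits a phosphatase to Mdm2. It stood at 88.1, 151.8 and 155.6 CPM in control libraries, at 129.8, 90.2 and 95.2 CPM in hairpin 1 libraries and at 141.5, 135.0 and 123.2 CPM in hairpin 2 libraries. Control replicate 1 was the lowest of all 9 and replicates 2 and 3 of the same group the highest, so the control group spanned both hairpins. Its log2 fold change was -0.33 ± 0.22 (SE) with hairpin 1 and 0.02 ± 0.21 with hairpin 2 (edgeR adjusted p = 0.9999 and 0.981).

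Trp53inp1 (ENSMUSG00000028211.11, chr4:11156431-11174379, plus strand) encodes a stress-induced nuclear protein that promotes p53 activity and autophagy. It stood at 28.6, 33.5 and 40.6 CPM in control libraries, at 30.8, 27.1 and 32.0 CPM in hairpin 1 libraries and at 58.9, 56.1 and 39.4 CPM in hairpin 2 libraries. Replicates 1 and 2 of hairpin 2 exceeded every other library, and replicate 3 lay above all hairpin 1 libraries but below control replicate 3. The groups therefore overlapped for hairpin 2 against control and did not for hairpin 2 against hairpin 1, a separation in that direction that 8.31% of all tested genes had.

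Against control the log2 fold change of Trp53inp1 was -0.19 ± 0.18 (SE) with hairpin 1 and 0.59 ± 0.18 with hairpin 2, a 1.503-fold higher level (edgeR unadjusted p = 0.00742, adjusted p = 0.249). Hairpin 2 against hairpin 1 gave 0.78 ± 0.18, a 1.72-fold higher level (edgeR unadjusted p = 0.00127, adjusted p = 0.375), with an exact permutation p of 0.1, the smallest that 3 against 3 allow. DESeq2 gave a log2 fold change of 0.78 for this difference with an adjusted p of 0.0335. The longest Trp53inp1 transcript has 5432 bases, against a median of 3205 over tested genes. With the length and GC trend of each library removed, its log2 fold change stood at 0.29 for hairpin 2 against control and at 0.55 for hairpin 2 against hairpin 1 (edgeR adjusted p = 0.584 and 0.886). Without the 2 libraries at the ends of the first component they were 0.51 and 0.73 (edgeR adjusted p = 0.473 and 0.975).

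**Figure D2:**
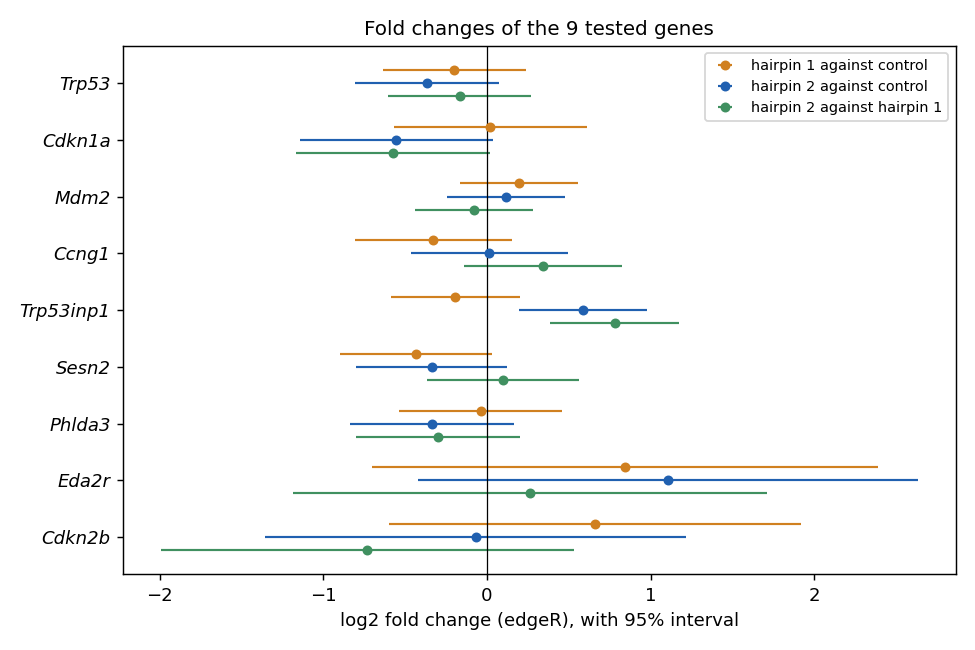
Log2 fold changes (horizontal axis) of the 9 tested genes with 95% intervals from edgeR, for each hairpin against control and hairpin 2 against hairpin 1. Only the intervals of Trp53inp1 with hairpin 2 leave out 0, from 0.20 to 0.98 against control and from 0.39 to 1.17 against hairpin 1.

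Sesn2 (ENSMUSG00000028893.8, chr4:132492032-132510501, minus strand) encodes sestrin 2, a stress-induced brake on the growth kinase complex mTORC1. It stood at 27.5, 35.7 and 36.1 CPM in control libraries, at 31.4, 20.3 and 21.7 CPM in hairpin 1 libraries and at 20.96, 32.0 and 25.5 CPM in hairpin 2 libraries. In each hairpin group 2 of 3 libraries lay below all controls, and the groups overlapped. The hairpins differed from control by a log2 fold change of -0.43 ± 0.21 (SE) with hairpin 1 and -0.34 ± 0.21 with hairpin 2, and -0.39 ± 0.18 for their mean (edgeR unadjusted p = 0.0542, adjusted p = 0.685). After the length and GC correction it was -0.49 ± 0.20 with hairpin 1, -0.27 ± 0.20 with hairpin 2 and -0.38 ± 0.17 for their mean (edgeR unadjusted p = 0.0317, 0.2 and 0.0467, adjusted p = 0.9999, 0.71 and 0.71). In that corrected fit 521 of 14193 genes had an unadjusted p under 0.05 for hairpin 1 and 989 for the mean. Without both libraries at the ends of the first component, a fit added after seeing the data, the mean stood at -0.60 (edgeR unadjusted p = 0.0017, adjusted p = 0.599). For the mean, 1165 of 14306 genes had an unadjusted p under 0.05 there. Both hairpin comparisons share the control libraries.

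Phlda3 (ENSMUSG00000041801.5, chr1:135766119-135769136, plus strand) encodes a PH domain protein that blocks Akt at the membrane. It stood at 94.3, 157.9 and 111.0 CPM in control libraries, at 148.8, 93.7 and 111.0 CPM in hairpin 1 libraries and at 100.5, 79.0 and 108.0 CPM in hairpin 2 libraries. Replicate 2 of hairpin 2 was the lowest, and each group overlapped the others. The log2 fold change was -0.04 ± 0.22 (SE) with hairpin 1 and -0.34 ± 0.22 with hairpin 2 (edgeR adjusted p = 0.9999 and 0.509). Leaving out 1 library at a time, the hairpin 2 value lay between -0.49 and -0.11, the last without control replicate 2, and with the length and GC trend removed it was -0.16.

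Eda2r (ENSMUSG00000034457.10, chrX:97333840-97377216, minus strand), the receptor of the ectodysplasin A2 ligand, was close to the counting floor. Its counts were 5, 5 and 4 in control libraries, 10, 4 and 11 in hairpin 1 libraries and 3, 15 and 13 in hairpin 2 libraries. The 4 libraries with 10 or more counts were 2 of each hairpin, and the remaining hairpin library of each group lay within or below the control range of CPM. No control library had 10 counts, so Eda2r passed the filter on low counts only through hairpin libraries. Its fold changes depend on that selection and are given as a description. The log2 fold change was 0.84 ± 0.70 (SE) with hairpin 1 and 1.11 ± 0.69 with hairpin 2 (edgeR adjusted p = 0.9999 and 0.480). The same 4 libraries held the highest summed fibroblast markers, 3378 and 784.3 CPM in hairpin 1 replicates 1 and 3 and 501.9 and 1467 CPM in hairpin 2 replicates 2 and 3, against 184 to 432 CPM in the other 5; their part in the result was not tested.

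The 9 tested genes did not move as a block across the libraries. Of their 36 pairs, 22 had a positive Pearson correlation of log2 CPM over the 9 libraries. By an exact two-sided permutation test, 2 passed a Benjamini-Hochberg adjusted p of 0.05 over the 36 pairs. The share of all gene pairs that reach such correlations was not computed. The first principal component alone held 35.8% of the variance, so these values are not read as particular to the members. Cdkn1a and Phlda3 varied together, with Pearson's r = 0.87 (exact permutation p = 0.00257, adjusted 0.0462) and Spearman's rho = 0.85 (exact permutation p = 0.00607, adjusted 0.149). Without the 2 libraries farthest from the Cdkn1a median, replicates 2 and 3 of hairpin 2, r was 0.96, and of the deviations from the group means it was 0.85. Trp53 and Eda2r varied inversely, with r = -0.87 (exact permutation p = 0.00237, adjusted 0.0462) and rho = -0.83 (exact permutation p = 0.00827, adjusted 0.149). Without the 2 farthest libraries r was -0.91, and within groups it was -0.86, on Eda2r counts of 3 to 15. Eda2r passed the filter only through hairpin libraries. Its highest libraries also held the most fibroblast markers, whose part in the result was not tested. Trp53 and Cdkn1a gave r = 0.37 and Trp53 and Mdm2 r = -0.26 (exact permutation p = 0.328 and 0.506, adjusted 0.738 and 0.814).

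**Figure D3:**
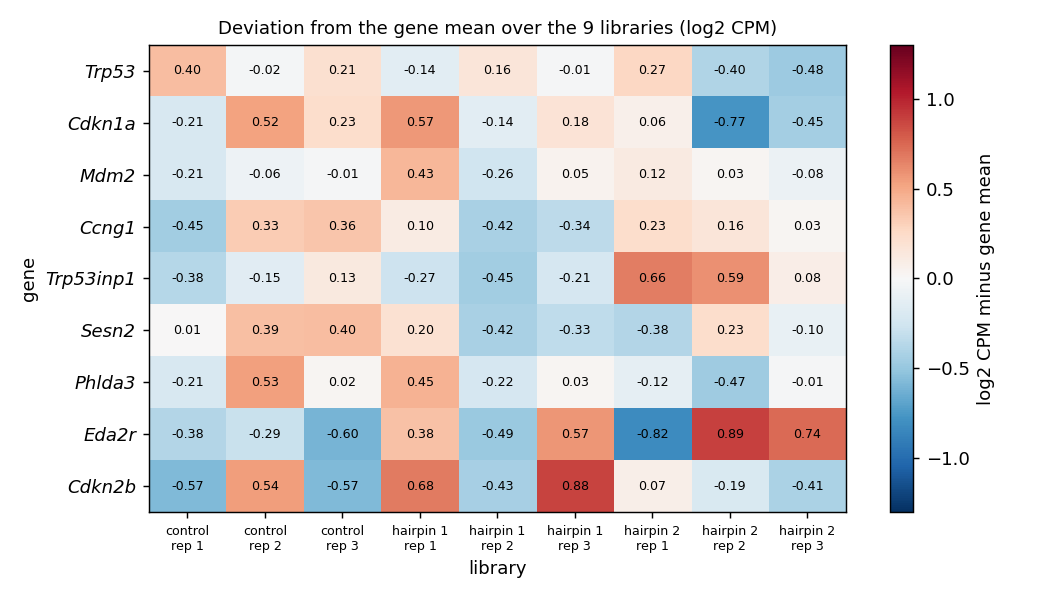
Deviation of each tested gene (rows) from its own mean over the 9 libraries (columns) in log2 CPM, with red above and blue below the mean. Cdkn1a and Phlda3 share their high libraries, control replicate 2 (0.52 and 0.53) and hairpin 1 replicate 1 (0.57 and 0.45), and their lowest, hairpin 2 replicate 2 (-0.77 and -0.47).

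Across all tested genes, the pattern most like that of Phlda3 over the 9 libraries was that of Plk3 (Pearson's r of log2 CPM 0.98), itself on the list of other p53 targets. For the other members the most similar genes were Zfp710 for Trp53 (r = 0.96), Rwdd1 for Cdkn1a (0.97), Ppp4r1l-ps for Mdm2 (0.92), Trnt1 for Ccng1 (0.97), Aebp2 for Trp53inp1 (0.95), Ccdc43 for Sesn2 (0.96), Fscn1 for Eda2r (0.98) and Samd4 for Cdkn2b (0.94). The second in rank were Ints14, Nle1, Gm8394, Polr3f, Cbx3, Strap, Hspa12a and CT010445.1 in the same order, and Adamtsl5 for Phlda3, with r between 0.91 and 0.96. These are the best of 14193 candidates over 9 libraries that share depth and tissue makeup, and are given as a description.

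At the Cdkn2 locus on chromosome 4, Cdkn2a (ENSMUSG00000044303.6, chr4:89274471-89294653, minus strand) had 0, 1 and 0 counts in control libraries, 9, 4 and 1 in hairpin 1 libraries and 0, 0 and 8 in hairpin 2 libraries, 23 in all. In the 4 libraries with 0 counts, a level of up to 0.178 to 0.188 CPM is allowed by a floor of 3 counts. The gene failed the filter on low counts and so has no fold change, and the exact permutation test of mean CPM gave p = 0.2 for hairpin 1 and 1.0 for hairpin 2 against control. The libraries with 9 and 8 counts held the highest summed fibroblast markers of the 9, 3378 and 1467 CPM; their part in the result was not tested. Counts are given per symbol, so p16INK4a and p19ARF transcripts were not separated.

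Both starts of Cdkn2a are shown because the gene's 2 products begin there, p19ARF at the upstream and p16INK4a at the downstream start, with an E2F motif in capitals. The motif was searched as TTTCCCGC, TTTGGCGC and TTTCGCGC on both strands, counting an overlap once. It was found once, as TTTCCCGC beginning 99 bases before the upstream start, and in 1.84% of all 32851 windows.
Cdkn2a upstream start, chr4:89294570-89294869, minus strand: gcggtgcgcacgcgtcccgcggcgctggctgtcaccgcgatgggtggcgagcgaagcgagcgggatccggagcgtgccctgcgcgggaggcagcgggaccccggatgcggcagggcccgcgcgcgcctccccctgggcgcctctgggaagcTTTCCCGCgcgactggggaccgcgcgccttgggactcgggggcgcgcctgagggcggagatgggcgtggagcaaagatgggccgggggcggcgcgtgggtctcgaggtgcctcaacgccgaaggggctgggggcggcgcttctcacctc
Cdkn2a downstream start, chr4:89282143-89282442, minus strand: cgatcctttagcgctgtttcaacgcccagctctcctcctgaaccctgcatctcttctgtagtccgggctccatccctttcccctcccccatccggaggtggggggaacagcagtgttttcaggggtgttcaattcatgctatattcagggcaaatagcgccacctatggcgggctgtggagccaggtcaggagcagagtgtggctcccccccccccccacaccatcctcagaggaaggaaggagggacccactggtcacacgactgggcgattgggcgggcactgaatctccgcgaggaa

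Cdkn2b (ENSMUSG00000073802.5, chr4:89306299-89311039, minus strand), 11.6 kb from Cdkn2a, was low but detected in all 9 libraries. Its counts were 8, 18 and 8 in control libraries, 22, 8 and 24 in hairpin 1 libraries and 13, 11 and 9 in hairpin 2 libraries. Replicates 1 and 3 of hairpin 1 were the highest, and control replicate 2 came next. With edgeR the log2 fold change was 0.66 ± 0.57 (SE) with hairpin 1 and -0.07 ± 0.58 with hairpin 2 (edgeR adjusted p = 0.9999 and 0.967). The 95% intervals, -0.60 to 1.92 and -1.36 to 1.22, span more than a doubling at this depth.

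Levels around the locus differed widely between neighbours. Mtap, which salvages methionine from methylthioadenosine and lies 93.4 kb from Cdkn2a, stood at 52.5 to 94.4 CPM per kb across the 9 libraries, against 0.0 to 0.595 CPM per kb for Cdkn2a and 0.342 to 1.09 CPM per kb for Cdkn2b. On the same side as Mtap, Klhl9, an adaptor of a ubiquitin ligase, averaged 23.6 CPM per kb, Focad 5.80, Mllt3 4.72 and Hacd4 2.67 CPM per kb over the 9 libraries; exons of Focad and Hacd4 overlap each other, and those of Klhl9 another gene. Ifne, an interferon gene of reproductive epithelium, had 0 counts in every library. On the other side of Cdkn2b, Dmrta1 had 4 counts in 2 libraries and the neuronal gene Elavl2 7 counts in 1 library. That library, replicate 1 of hairpin 1, also held 3 of the 4 Dmrta1 counts and the most Cdkn2a counts.

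**Figure D4:**
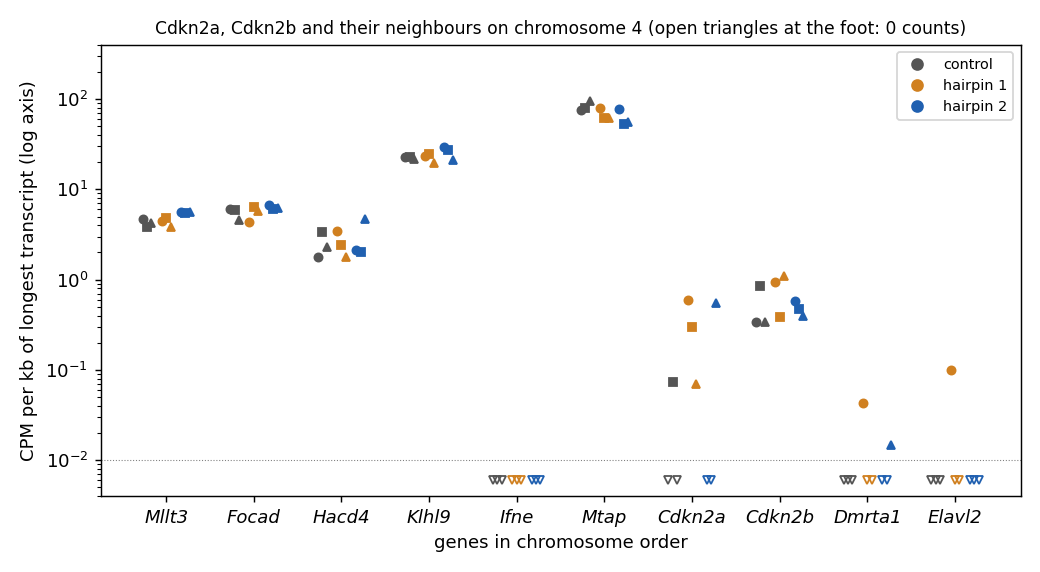
CPM per kb of the longest transcript (vertical log axis) of Cdkn2a, Cdkn2b and 8 neighbours in chromosome order (horizontal axis, not to scale), with a point per library coloured by group; open triangles below the dotted line are libraries with 0 counts. Mtap lies at 52.5 to 94.4 CPM per kb beside Cdkn2a at 0.0 to 0.595 CPM per kb.

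Of the 8 neighbours, 5 were tested, and edgeR and DESeq2 called 0 in any contrast. With hairpin 2 against control, 4 of the 5 had a positive log2 fold change (median 0.22, against 0.01 over all tested genes), and 1 higher and 1 lower had an unadjusted p under 0.05, where 8.14% and 6.27% of all genes did. Mllt3, a subunit of a transcription elongation complex, gave 0.40 ± 0.13 (SE) and Mtap -0.42 ± 0.17 (edgeR adjusted p = 0.254 and 0.302). With the length and GC trend removed, 3 of the 5 were positive and 2 negative with hairpin 2 (median 0.07), 0 higher and 1 lower had an unadjusted p under 0.05, and Mllt3 stood at 0.11 ± 0.13 and Mtap at -0.40 ± 0.15. Of all 14193 genes, 448 were higher and 915 lower at that p in this corrected fit. With hairpin 1, 3 of the 5 were positive and 2 negative.

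The other p53 targets stood on both sides of control. Of 30 listed, 29 were tested and edgeR called 0 in any contrast; DESeq2 called 0 of those it gave an adjusted p. With hairpin 2 against control 13 were higher and 16 lower, with a median log2 fold change of -0.03 against 0.01 over all tested genes. Lower at an unadjusted p under 0.05 were 2 (background 6.27%), the pro-apoptotic Bax (log2 fold change -0.26 ± 0.11 SE, adjusted p = 0.324) and the epoxide hydrolase Ephx1 (-0.63 ± 0.25, adjusted p = 0.302, edgeR), and 0 were higher. The kinase gene Plk3 had the widest difference, -0.81 ± 0.54 (edgeR adjusted p = 0.514), and Zmat3, an RNA-binding repressor of growth, stood at 0.52 ± 0.25 (edgeR adjusted p = 0.369). Its hairpin 2 libraries stood at 69.0, 117.2 and 57.2 CPM against 63.0, 46.9 and 59.3 CPM in control libraries, so replicate 2 stood apart and replicate 3 lay among the controls. With the length and GC trend removed, Zmat3 gave 0.20 ± 0.21. Of the other abundant targets, Ei24 gave -0.01 ± 0.13 and Abhd4 -0.07 ± 0.11. Exons of Bax, Ephx1, Ei24 and Plk3 overlap those of another annotated gene, so their counts may hold reads of it.

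With hairpin 1, 11 of the 29 were higher and 18 lower (median -0.08). At an unadjusted p under 0.05, 1 was higher (background 1.85%), the apoptosis gene Perp at 1.84 ± 0.65, and 2 were lower (background 1.32%), the microtubule-binding Psrc1 at -0.46 ± 0.15 and Gtse1 at -0.30 ± 0.13 (log2 fold change ± SE; edgeR adjusted p = 0.9999 each), 3 genes named after their values were seen. Perp had 166, 24 and 103 counts in hairpin 1 libraries against 17, 43 and 20 in control libraries, so replicate 2 lay among the controls. Its 2 high libraries are 2 of the 4 with the most fibroblast markers, whose part in the result was not tested.

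Genes for regulators of p53 stood mostly higher with hairpin 2 in the counts as deposited. All 13 listed were tested, edgeR called 0 in any contrast and DESeq2 called 1, Ep300 with hairpin 2. With hairpin 2 against control 8 were higher and 5 lower, with a median log2 fold change of 0.31 against 0.01 over all genes. At an unadjusted p under 0.05, 6 were higher (background 8.14%) and 0 lower. Ep300, a histone acetyltransferase that also acetylates p53, stood at 80.0 ± 16.5 CPM in control and 126 ± 17.8 CPM in hairpin 2 libraries (SD, n = 3), a log2 fold change of 0.65 ± 0.19 (SE; edgeR adjusted p = 0.241, DESeq2 adjusted p = 0.0435). Atm, the kinase that signals DNA breaks to p53, gave 0.50 ± 0.15, and Hipk2, which phosphorylates p53, 0.83 ± 0.31 (edgeR adjusted p = 0.252 and 0.289). The ubiquitin ligase gene Cop1 gave 0.34 ± 0.12, Trp53bp1 0.31 ± 0.21 and Usp7, which removes ubiquitin from Mdm2 and p53, -0.05 ± 0.16. Exons of Ep300 and Trp53bp1 overlap those of another annotated gene.

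The median longest transcript of these 13 genes has 6999 bases. With each library's length and GC trend removed, their median log2 fold change with hairpin 2 was -0.02, beside -0.02 over all genes, with 5 higher and 8 lower. At an unadjusted p under 0.05 there were then 2 higher, Hipk2 at 0.59 ± 0.26 and Ep300 at 0.33 ± 0.13, and Atm stood at 0.11 ± 0.13. Of all 14193 genes, 448 were higher and 915 lower at that p in this corrected fit. With hairpin 1 against control 5 of the 13 were higher and 8 lower in the counts as deposited (median -0.04).

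**Figure D5:**
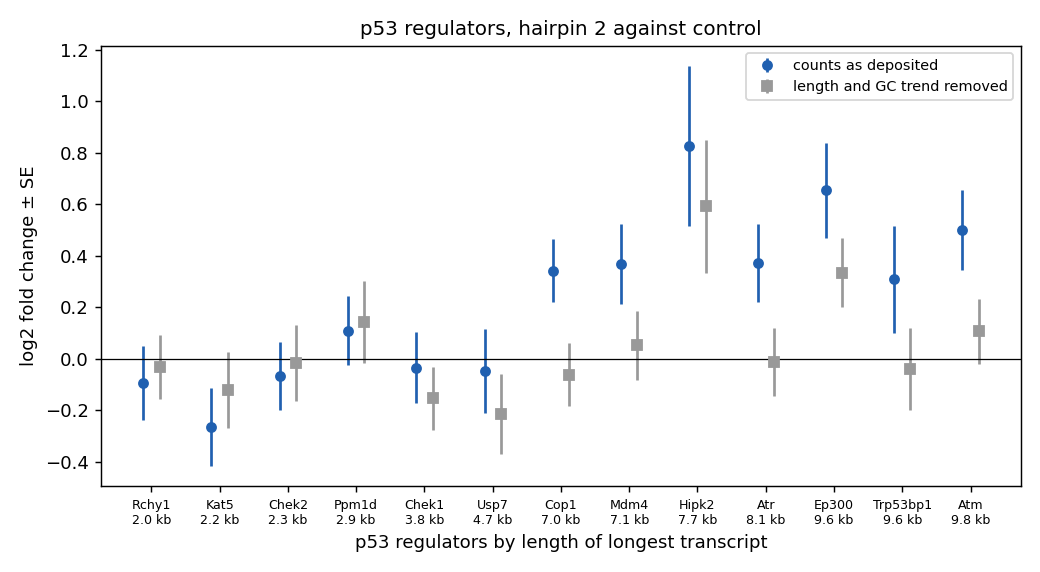
Log2 fold change ± SE (vertical axis) of the 13 p53 regulators for hairpin 2 against control, ordered by the length of their longest transcript (horizontal axis, in kb), from the counts as deposited (circles) and with the length and GC trend of each library removed (squares). The circles of Cop1, Mdm4, Hipk2, Atr, Ep300, Trp53bp1 and Atm lie at 0.31 to 0.83, and the squares of Cop1, Atr and Trp53bp1 lie at -0.06 to -0.01.

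Genes of the G1 checkpoint, on which p21 and the INK4 proteins act, were tested for 15 of 16 listed. edgeR called 0 in any contrast, and DESeq2 called 1, Ccne1 with hairpin 2. With hairpin 2 against control 6 were higher and 9 lower (median log2 fold change -0.19), and at an unadjusted p under 0.05 there were 2 higher (background 8.14%) and 5 lower (background 6.27%). The 5 lower were Ccne1, Cdk4, Ccnd3, Cdkn2c and Ccnd1, and the 2 higher Ccnd2 and Rbl2; Ccnd1 and Rbl2 are named after their values were seen. Ccne1, encoding cyclin E1, stood at 52.5, 51.0 and 54.0 CPM in control libraries and at 42.0, 34.2 and 38.7 CPM in hairpin 2 libraries, which did not overlap, a log2 fold change of -0.45 ± 0.11 (SE; edgeR adjusted p = 0.241, DESeq2 adjusted p = 0.0174). Groups that did not overlap in either direction made up 20.9% of all genes in this comparison.

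Cdk4, the kinase inhibited by p16INK4a and p15INK4b, gave -0.40 ± 0.14 and Ccnd3, one of its cyclin D partners, -0.43 ± 0.16 (edgeR adjusted p = 0.267 and 0.281). Cdkn2c, which encodes the related inhibitor p18INK4c, stood at 117.6 ± 22.2 CPM in control and 82.1 ± 9.37 CPM in hairpin 2 libraries (SD, n = 3), a log2 fold change of -0.52 ± 0.17 (edgeR adjusted p = 0.263). Ccnd2, another cyclin D gene, gave 0.27 ± 0.09, Rbl2, a relative of the retinoblastoma gene, 0.39 ± 0.14 and Cdk2 0.25 ± 0.13. Exons of Cdk2 overlap those of Pmel, a melanosome gene at a mean of 5487 CPM in hairpin 2 and 5745 CPM in control libraries. Exons of Cdk4, Ccnd1, Ccnd2, Ccnd3 and Rbl2 overlap other annotated genes, so the counts of these 5 and of Cdk2 may hold reads of the overlapping gene. With the length and GC trend removed, 0 of the 15 were higher and 5 lower with hairpin 2 at an unadjusted p under 0.05 (median -0.18, against -0.02 over all genes), and Ccne1 stood at -0.34 ± 0.13. Of all 14193 genes, 448 were higher and 915 lower at that p in the same fit. With hairpin 1 against control 6 were higher and 9 lower, and 1, Ccnd1, was lower at an unadjusted p under 0.05, at -0.36 ± 0.12 (edgeR adjusted p = 0.9999).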

How the data were processed

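RNA from tumours was sequenced as 9 libraries, and the authors deposited whole-number counts per gene symbol, 1 file per library. STAR 2.7.0d, Cufflinks, GRCh38 and hg38 appear in the submitters' processing notes, the last 2 being human builds, whereas the symbols are mouse symbols. Which counter, annotation and strand setting were used is not given in the sources used here. Library pairs of 1 group differed beyond sampling noise (chi-square over degrees of freedom 20.8 to 73.4), and all 9 were kept as separate samples. The labels give no batch.

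The test was edgeR's robust quasi-likelihood fit (version 4.0.16, R 4.3.3) over the 9 libraries in 3 groups, after TMM scaling and a filter by group with filterByExpr. The filter asked for about 10 counts, scaled to library size, in at least as many libraries as a group holds, and 15 in total. Those libraries could come from any group. P-values were adjusted over all tested genes by Benjamini-Hochberg (threshold 0.05). Fold changes are edgeR log2 values and CPM uses the TMM-scaled library sizes. Coordinates, lengths and GC content came from GENCODE M21 (GRCm38), with the longest transcript per symbol. Single values were compared by an exact two-sided permutation test of mean CPM. The steps were tested on simulated counts, with 100 genes changed 2-fold and 100 changed 4-fold, up or down, in the hairpin 2 libraries. At the threshold, edgeR recovered 47% of the 2-fold and 70% of the 4-fold changes, and 7.14% of its calls were false.

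The members and the lists of other targets, regulators, G1 genes, neighbours and cell type markers were chosen with earlier results of these data known. Named from each list were members past the threshold, the 4 of highest mean CPM and the 3 of widest difference with hairpin 2; for each tested member, the 2 genes of highest Pearson r (prior count 2) are named. Alternatives were other scalings and filters, DESeq2 1.42.0, limma-voom 3.58.1, no robust option, a length and GC correction, a replicate block, fits of only the groups compared and leaving out each library. Leaving out both libraries at the ends of the first component was added after seeing the data.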

Additional observations from a re-analysis of the deposited data

How the results depend on the processing

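Of 637 alternative values for the 36 member fold changes, 29 changed sign, and 26 of the 36 did so under none of the alternatives run. No reversed value passed the threshold, and the cause was not tested. Leaving out each library in turn moved the log2 fold change between -0.20 and 0.20 for Cdkn1a, -0.0203 and 0.34 for Mdm2 and -0.26 and 0.19 for Phlda3 (hairpin 1 against control), between -0.21 and 0.15 for Ccng1 and -0.29 and 0.48 for Cdkn2b (hairpin 2), between -0.34 and 0.0382 for Phlda3 (mean of both), and between -0.24 and 0.12 for Mdm2, -0.0768 and 0.32 for Sesn2 and -0.0906 and 0.69 for Eda2r (hairpin 2 against hairpin 1). With hairpin 2 against control the same step kept the sign but moved Trp53 between -0.64 and -0.23, Cdkn1a between -0.81 and -0.38, Mdm2 between 0.06 and 0.16, Sesn2 between -0.52 and -0.20, Phlda3 between -0.49 and -0.11 and Eda2r between 0.74 and 1.53. Without both libraries at the ends of the first component, values reversed to -0.20 (Cdkn1a) and -0.0192 (Mdm2) for hairpin 1, -0.0123 (Ccng1) for hairpin 2, and 0.12 (Mdm2) and 0.0223 (Phlda3) for hairpin 2 against hairpin 1. With the length and GC trend removed, Cdkn1a with hairpin 1 stood at -0.0284, and Ccng1 and Cdkn2b with hairpin 2 at -0.0644 and 0.13. Upper-quartile scaling gave Ccng1 -0.0199 and limma-voom gave Cdkn2b 0.0551, both with hairpin 2.

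DESeq2 called 303 genes for hairpin 2, 8 for the mean and 89 for hairpin 2 against hairpin 1, and of the members 1, Trp53inp1 in the last (log2 fold change 0.78, adjusted p = 0.0335). With no filter on low counts edgeR called 4 genes for hairpin 2 and 2 for hairpin 2 against hairpin 1. Leaving out each library in turn, it called between 0 and 2 genes and between 0 and 1 gene in these contrasts, in both cases with the most called without replicate 1 of hairpin 2.

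Groups share replicate numbers, and r of the deviations from the group means ran from -0.41 to 0.14 between same-numbered libraries. Between libraries of unlike number in different groups it ran from -0.41 to 0.51. Deviations within a group sum to 0, so these values show no pairing but cannot settle what same-numbered libraries share. With a replicate block, edgeR called 0 genes in each contrast, with 287, 1498, 701 and 1141 at an unadjusted p under 0.05 for hairpin 1, hairpin 2, their mean and hairpin 2 against hairpin 1. The block gave Cdkn1a with hairpin 1 a log2 fold change of -0.0248. Eda2r, Cdkn2b and Cdkn2a are limited by counts of 0 to 24 per library.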
